A study of Mus musculus with 18 samples.

Results

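The 41 genes described here encode the machinery of the lysosome and of autophagy, and they were taken by symbol from a table of 54347 mouse genes. They fall into 7 role groups: the MiT transcription factors (3 genes), the cathepsin peptidases (7), the glycosidases with the activator Psap (7), the membrane and lipid export proteins (7), the proton pump (6), the autophagy cargo receptor Sqstm1 with the ATG8 proteins (5), and the initiation and conjugation factors of autophagy (6). All 41 symbols were found. Of these, 40 could be tested in every comparison, and Ctss, the cathepsin S gene of macrophages and other antigen-presenting cells, was at 0 in 17 of 18 libraries and was not tested.

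RNA was sequenced from mesenchymal stem cells (MSC) of male C57BL/6J mouse bone marrow, kept as a primary line made from pooled marrow. In the first experiment, untransfected cells were left untreated (control), given CK666, which inhibits the Arp2/3 complex and so the branching of actin, or given cytochalasin D (CytoD), which caps the growing end of actin filaments. In the second, cells were transfected with control siRNA (siControl; one label calls it a mock), with siRNA against the nuclear actin-related protein Arp4 (siArp4), or with siArp4 followed by CK666 (siArp4+CK666), so transfection is shared by all 3 of these groups and by none of the first experiment. Each of the 6 groups had 3 libraries; transfected control cells given CK666 are not analysed here.

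Lysosomes are acid compartments in which peptidases, glycosidases and lipases take apart material delivered by endocytosis and by autophagy. A V-type ATPase pumps protons into them, and membrane proteins shield their wall and export what digestion releases. In autophagy, ATG8 proteins are joined to a growing membrane that encloses cargo tagged by receptors such as p62 (Sqstm1), and the closed vesicle then fuses with a lysosome. Many of these genes carry a CACGTG-containing element that TFEB, TFE3 and MITF bind when they are in the nucleus, and these factors are regulated mainly by their place in the cell, which messenger RNA levels do not measure.

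The promoters of the members are shown first because this element is what the MiT factors are known to bind. RefSeq promoters (GRCm38.p6, 250 bases before to 50 after the start) were found for 35 of the 41 genes. The letters TCACGTG, read on either strand and always containing CACGTG, were present in 11 of the 35 (31.4%), against 4.29% of all 27025 genes with a promoter and 24 of 131 (18.3%) of other lysosome and autophagy genes. CACGTG alone was present in 13 (37.1%), against 8.09% of all genes. The 11 were Atg7, Atp6v0d1, Atp6v0e, Atp6v1a, Ctsa, Ctsd, Gla, Glb1, Lamp1, Mcoln1 and Naglu. Stretches of 30 bases around the element follow for 8 of them, spread over 4 role groups, 5′ to 3′ on the strand of the gene, with CACGTG in capitals.
Ctsa: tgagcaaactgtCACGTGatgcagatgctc
Ctsd: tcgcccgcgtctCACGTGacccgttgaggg
Gla: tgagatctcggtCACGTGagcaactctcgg
Glb1: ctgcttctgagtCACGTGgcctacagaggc
Naglu: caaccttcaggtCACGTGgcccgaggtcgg
Lamp1: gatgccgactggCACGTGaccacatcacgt
Mcoln1: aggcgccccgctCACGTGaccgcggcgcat
Atp6v0d1: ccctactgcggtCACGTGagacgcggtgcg
They lie at chr2:164833749-164833778 (plus strand, Ctsa), chr7:142387908-142387937 (minus, Ctsd), chrX:134601182-134601211 (minus, Gla), chr9:114401018-114401047 (plus, Glb1), chr11:101070009-101070038 (plus, Naglu), chr8:13159121-13159150 (plus, Lamp1), chr8:3500462-3500491 (plus, Mcoln1) and chr8:105566050-105566079 (minus, Atp6v0d1). A match describes these letters only, and no binding was measured.

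The 18 libraries held between 18075610 and 24733212 counts. The siRNA lowered its target: Actl6a, which encodes Arp4, had 720, 1127 and 841 normalized counts under siControl, against 48.8, 57.2 and 19.0 under siArp4 and 9.52, 22.9 and 17.9 once CK666 was added. Replicates were uneven in spread. The median coefficient of variation of the members was 4.0% in control, 3.77% in CytoD and 5.71% in siArp4, but 11.2% in CK666, 11.4% in siArp4+CK666 and 25.1% in siControl. Some libraries stood apart from their own group by transcript length. In siControl replicate 2, genes with transcripts up to 1500 bases lay a median 0.95 above, on the log2 scale, and genes from 4000 bases lay 0.48 below (a log2 deviation of -0.48) the mean of the other 2 libraries, and siControl replicate 1 went the other way (-1.05 and 0.54). In the first experiment, CK666 replicate 1 leaned toward short transcripts (0.58 and -0.37). The members followed their lengths, with Spearman's rho of -0.52 in siControl replicate 2, 0.60 in siControl replicate 1 and -0.59 in CK666 replicate 1 over 38 members that share these libraries. The short members are Cd63, Ctss, Ctsz, Gabarap and Map1lc3a. Length also ran through comparisons between groups, among genes with a mean of at least 500 counts. In siArp4 against siControl the median log2 fold change was -0.43 for genes up to 1500 bases and 0.18 from 4000 bases. It was -0.47 and 0.34 in siArp4+CK666 against siControl, and 0.21 and -0.08 in CK666 against control. Values with this trend removed, an alternative chosen after seeing the data, stand below beside some of the results they change. Over all members and comparisons, removal added 34 calls, ended 6 and reversed 1 direction, while 243 results kept their outcome.

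**Figure D1:**
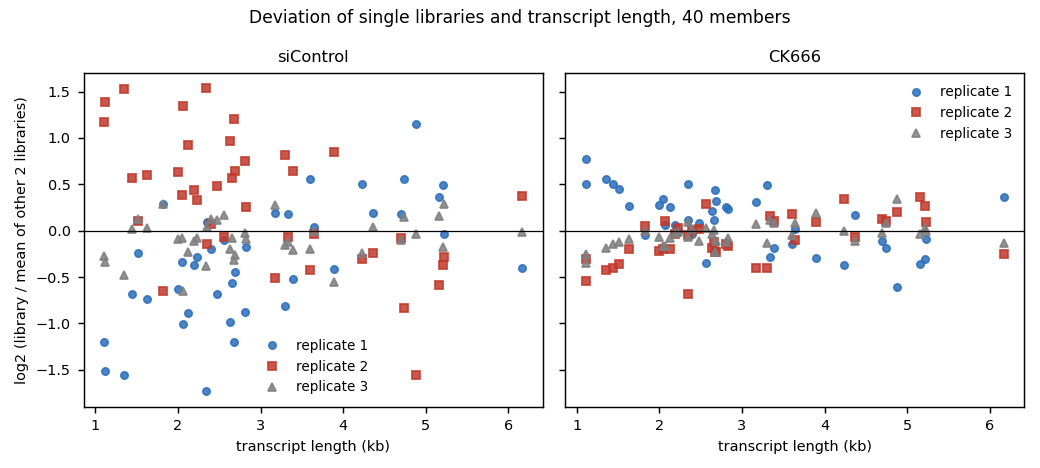
Log2 deviation of each siControl and CK666 library from the mean of the other 2 libraries of its group (vertical) against transcript length in kb (horizontal), 1 point per member for the 40 tested members. In siControl replicate 2 the short members lie high and the long ones low, and in siControl replicate 1 the slope is the reverse.

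Per kilobase of transcript, members spanned a wide range in control cells. Cd63, a tetraspanin of late endosomes, had the highest level (18791 normalized counts per kb), followed by Psap (12507), the precursor of the saposins, Lamp1 (10399), a main glycoprotein of the lysosomal wall, Sqstm1 (5770) and the aspartic peptidase gene Ctsd (5136). The MiT factors were near the bottom, with Tfe3 at 386, Tfeb at 77.1 and Mitf at 57.9 per kb. As a share of all counts, the members took 1.02 to 1.06% in control libraries, 1.52 to 1.64% in CK666 and 1.60 to 1.65% in CytoD. In the second experiment the share was 1.67 to 1.99% in siControl, 1.97 to 2.02% in siArp4 and 2.68 to 2.88% in siArp4+CK666. The treated libraries therefore lay above every control library of their experiment except for siArp4, of which 2 of 3 libraries lay inside the siControl range.

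Inhibition of Arp2/3 was compared with untreated cells first. With CK666, 24 of the 41 members passed the test (DESeq2, adjusted p below 0.01 over all genes), 23 higher and 1 lower, where 30.0% of all 14597 genes tested passed, 15.3% higher and 14.7% lower. Among genes with a mean of at least 500 counts, which include 38 members, 38.4% of all genes and 24 members passed. The median log2 fold change was 0.41 over the tested members and 0.01 over all genes, and 6 members passed with more than a 2-fold change, all higher (11.0% of all genes in either direction, 4.89% higher). These were Sqstm1, Ctsk, Npc1, Neu1, Naglu and Hexa. Since these are bulk libraries, a change in the cells of one type and a change in RNA per cell cannot be told apart.

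**Figure D2:**
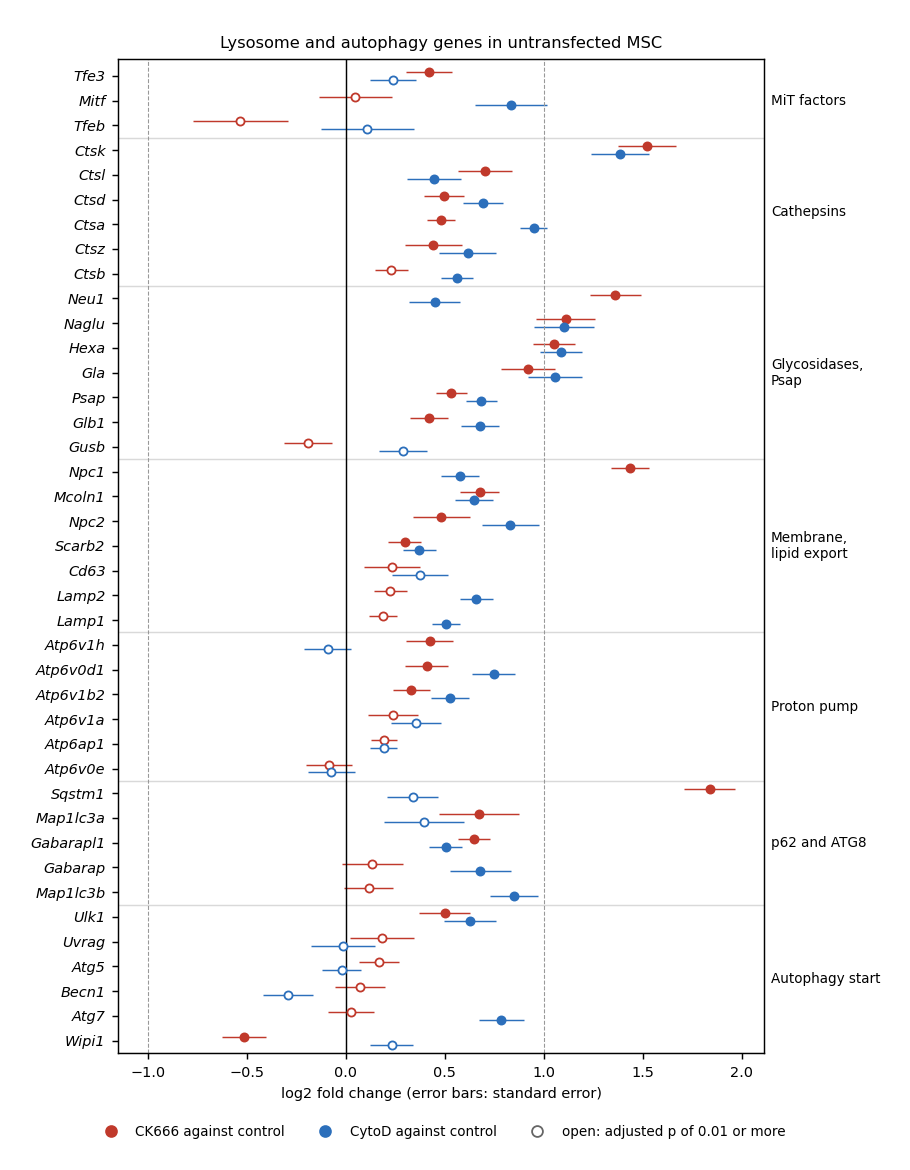
Log2 fold change with its SE (horizontal) of the 40 tested members, grouped by role, for CK666 and for CytoD against the same 3 control libraries; filled points passed at an adjusted p below 0.01. Most points lie to the right of 0 for both drugs, with 23 members passing higher in CK666 and 26 in CytoD, and Sqstm1 has the largest log2 fold change with CK666 (1.84) and a small one with CytoD (0.34).

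Sqstm1 rose most. Its level was 15984, 15385 and 14902 normalized counts in control and 66692, 49287 and 49324 in CK666. The CK666 libraries lay far above the control libraries, and the log2 fold change was 1.84 ± 0.13 (SE), a 3.57-fold difference with adjusted p = 2.6e-44. Npc1, which moves cholesterol out of the lysosome, had 1296, 1445 and 1412 counts in control and 3592, 3905 and 3736 in CK666, and the groups were far apart (log2 1.44 ± 0.10, adjusted p = 2.9e-49). The Npc1 gene overlaps Rmc1 on the other strand, which had a mean of 554 estimated counts, and unstranded reads from shared sequence could be credited to either gene. Its partner Npc2, a soluble cholesterol carrier, changed less (0.48 ± 0.14, adjusted p = 0.0033).

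Among the degradative enzymes, 5 of 7 cathepsins and 6 of 7 glycosidases rose with CK666. Ctsk, the collagen-cutting cathepsin best known from osteoclasts, went from 957, 887 and 908 counts in control to 3200, 2212 and 2490 in CK666, with no overlap (1.52 ± 0.15, adjusted p = 6.3e-24). Neu1, the lysosomal sialidase, went from 814, 645 and 842 to 2048, 1991 and 1872 (1.36 ± 0.13, adjusted p = 5.4e-25). Naglu, which removes N-acetylglucosamine from heparan sulfate, went from 1347, 1174 and 1552 to 2486, 3340 and 2968 (1.11 ± 0.15, adjusted p = 2.4e-12). In these 3 genes all CK666 libraries exceeded every control library. The genes were named for passing with over a 2-fold change, so this is no separate support. Hexa, the alpha subunit of hexosaminidase A, which degrades GM2 ganglioside, had 2113, 2224 and 2126 counts against 5050, 4025 and 4329 (1.05 ± 0.11, adjusted p = 4.7e-22). Gla, the alpha-galactosidase that degrades globotriaosylceramide, had 1436, 1541 and 1307 counts against 3095, 2221 and 2786 (0.92 ± 0.14, adjusted p = 2.1e-10). Smaller rises passed for the peptidase genes Ctsl (0.70), Ctsd (0.50), Ctsa (0.48) and Ctsz (0.44), for Psap (0.53) and for the beta-galactosidase gene Glb1 (0.42). The cysteine peptidase gene Ctsb, at 23254, 22489 and 22281 counts in control and 24351, 27858 and 27615 in CK666, did not pass (0.23).

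Of the membrane proteins, 4 of 7 rose with CK666. Besides Npc1 and Npc2 these were Mcoln1, the lysosomal calcium channel TRPML1 (0.68 ± 0.10, adjusted p = 5.0e-11), and Scarb2, the receptor that carries glucocerebrosidase to lysosomes (0.30). Of the proton pump, Atp6v1h (0.42), Atp6v0d1 (0.41) and Atp6v1b2 (0.33) passed. The only member that fell was Wipi1, which reads phosphatidylinositol 3-phosphate on the forming autophagosome. It measured 1554, 1724 and 1695 counts in control and 1014, 1247 and 1227 in CK666, without overlap (-0.51 ± 0.11, adjusted p = 2.3e-05). Ulk1, the kinase that starts autophagy, rose (0.50 ± 0.13, adjusted p = 5.4e-04). The smaller of the changes with CK666 rested on few libraries: leaving out 1 library ended the calls of Atp6v0d1, Atp6v1b2, Atp6v1h, Ctsz, Map1lc3a, Npc2, Scarb2, Tfe3 and Ulk1. Control replicate 2 alone did so for all of these but Ulk1, with adjusted p from 0.015 (Scarb2) to 0.031 (Ctsz), and Ulk1 lost its call without control replicate 1 or CK666 replicate 3 (both 0.011).

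The 4 ATG8 genes did not move alike. Gabarapl1 rose from 1890, 2130 and 2063 counts to 3110, 3245 and 3168 (0.65 ± 0.08, adjusted p = 7.3e-14), and its replicates were tight in both groups. Map1lc3a had 1310, 1263 and 1170 counts in control and 2753, 1528 and 1685 in CK666 (0.67 ± 0.20, adjusted p = 0.0032), so its rise leaned on CK666 replicate 1, the library that favoured short transcripts. Map1lc3b, at 3969, 3100 and 3280 against 4113, 3413 and 3683, and Gabarap, at 4274, 4357 and 4182 against 5956, 3811 and 4288, overlapped and did not pass. The 95% intervals of their log2 differences were -0.12 to 0.35 and -0.17 to 0.44.

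Of the MiT factors, Tfe3 rose with CK666, from 1366, 1253 and 1305 counts to 1599, 1832 and 1819 (0.42 ± 0.11, adjusted p = 0.0011). Tfeb went the other way without passing, at 185, 167 and 189 counts in control and 155, 88.7 and 130 in CK666 (-0.53 ± 0.24, adjusted p = 0.064), although the groups did not overlap. With the length trend removed, Tfeb was at -0.62 with adjusted p = 0.0094. Mitf measured 288, 301 and 259 counts in control and 216, 320 and 340 in CK666 and overlapped (0.05).

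The plot of levels shows 16 of these genes in every library.

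**Figure D3:**
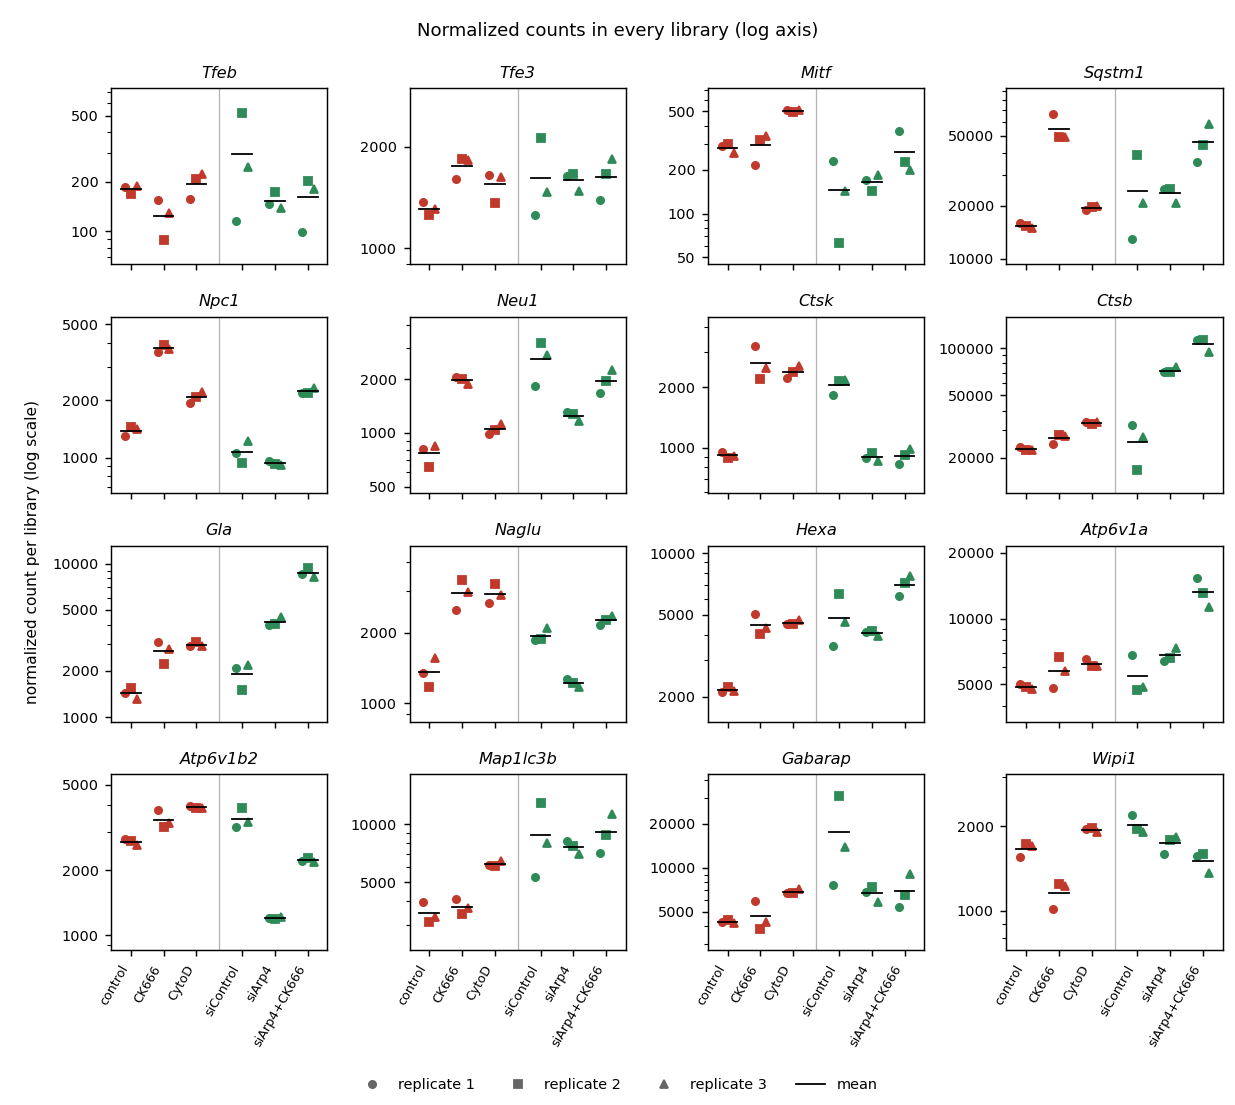
Normalized counts (vertical, log axis) in each of the 18 libraries for 16 members, with the first experiment in red and the second in green; each experiment has its own scaling, marker shapes are replicates and the line is the group mean. Sqstm1, Npc1 and Neu1 are highest of the first experiment in CK666, Ctsb and Gla are highest of the second in siArp4+CK666, and the siControl libraries of Tfeb, Sqstm1 and Gabarap are spread far apart.

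Capping of filaments by CytoD gave a comparison with the same 3 control libraries. Of the 41 members 26 passed, all higher, where 29.6% of all 13717 genes passed, 13.6% higher and 16.0% lower. Among genes with a mean of at least 500 counts, 37.8% of all and 25 of 38 members passed, and 14.0% of all passed higher. The median log2 fold change was 0.55 over the tested members and 0.01 over all genes. More than a 2-fold change was reached by 4 members, all higher, against 9.12% of all genes, 4.8% higher and the rest lower. These were Ctsk (2227, 2386 and 2564 counts, 1.38 ± 0.15, adjusted p = 9.7e-20), Naglu (2670, 3200 and 2876, 1.10 ± 0.15, adjusted p = 3.7e-12), Hexa (4506, 4515 and 4719, 1.09 ± 0.11, adjusted p = 2.2e-23) and Gla (2906, 3088 and 2905, 1.05 ± 0.14, adjusted p = 2.1e-13). All 12 of these library values exceeded every control library of the same gene, which is no separate support, since the genes were named for their change.

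With CytoD, all 6 tested cathepsins, 6 of 7 glycosidases and 6 of 7 membrane proteins passed higher, but 2 of 6 pump genes, 2 of 6 initiation and conjugation factors and 1 of 3 MiT factors. Ctsa, the protective protein that keeps Neu1 and Glb1 stable, went from 4984, 5037 and 5063 counts to 9732, 9815 and 9565 (0.95 ± 0.07, adjusted p = 2.5e-41); its gene overlaps Pltp on the other strand (mean of 2136 estimated counts), so its counts are uncertain in part. Lamp1 (0.50) and Lamp2 (0.66), the main wall glycoproteins, and Npc2 (0.83) passed too. Of the membrane group Cd63 alone did not pass, at 22105, 20053 and 20359 counts in control and 26476, 26422 and 28134 in CytoD (0.37). Of the glycosidase group the beta-glucuronidase gene Gusb did not pass in either drug. In the proton pump, Atp6v0d1 (0.75) and Atp6v1b2 (0.53) rose. The calls of Ctsl (0.44) and Neu1 (982, 1038 and 1122 counts, 0.45) were lost without control replicate 2 (adjusted p = 0.016 and 0.025), without CytoD replicate 2 (0.020 and 0.018) or without CytoD replicate 3 (0.055 and 0.033), and that of Ctsl also without control replicate 3 (0.054).

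The autophagy genes that rose with CytoD included 3 that had not passed with CK666, Map1lc3b, Gabarap and Atg7. Map1lc3b went to 6161, 6037 and 6426 counts (0.85 ± 0.12, adjusted p = 5.5e-11), and Gabarap to 6684, 6675 and 7147 (0.68 ± 0.15, adjusted p = 6.8e-05). The Map1lc3b gene overlaps Zcchc14 on the other strand (mean of 2434 estimated counts), so its counts carry the same uncertainty. Gabarapl1 reached 2815, 2904 and 2910 (0.50), and Map1lc3a, at 1535, 1601 and 1782, did not pass (0.39). Atg7, the E1-like enzyme of ATG8 conjugation, rose from 1023, 987 and 1026 to 1836, 1751 and 1649 (0.79 ± 0.12, adjusted p = 1.2e-10), and Ulk1 rose by 0.63. Sqstm1, at 18970, 19578 and 19964 counts, lay above all control libraries but short of the threshold (0.34, adjusted p = 0.025). Mitf rose from 288, 301 and 259 to 508, 492 and 513 (0.83 ± 0.18, adjusted p = 2.6e-05), while Tfeb (156, 206 and 222) and Tfe3 (1647, 1362 and 1622) overlapped with control.

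Setting the drugs against each other tests where they differed. Between CK666 and CytoD 15 members passed, 4 higher in CK666 and 11 higher in CytoD, where 31.8% of all genes passed, 16.9% higher in CK666 and 14.9% higher in CytoD, and the median of the tested members was -0.13. Higher in CK666 were Sqstm1 (1.5 ± 0.13, adjusted p = 9.3e-30), the 1 member past a 2-fold difference (11.8% of all genes), Neu1 (0.91 ± 0.13, adjusted p = 8.2e-12), Npc1 (0.86 ± 0.09, adjusted p = 2.6e-18) and Atp6v1h (0.52 ± 0.12, adjusted p = 8.9e-05). Higher in CytoD were Mitf (-0.79), Atg7 (-0.76), Wipi1 (-0.74), Map1lc3b (-0.73), Gabarap (-0.54), Gusb (-0.48), Ctsa (-0.47), Lamp2 (-0.43), Atp6v0d1 (-0.34), Ctsb (-0.33) and Lamp1 (-0.32). Wipi1 measured 1961, 1973 and 1909 counts in CytoD, above every CK666 and control library. For Ctsk, Hexa, Gla and Naglu no difference between the drugs passed the test; for Ctsk the log2 difference was 0.14. The call of Atp6v0d1 was lost without any 1 library but CK666 replicate 1 (adjusted p up to 0.060 without CytoD replicate 3), and those of Gabarap and Gusb without CK666 replicate 3 (0.021 and 0.010) or CytoD replicate 3 (0.018 and 0.011).

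Knockdown of Arp4 gave a mixed picture. Of the 41 members 12 passed against siControl, 3 higher and 9 lower, where 25.1% of all 15415 genes passed, 11.9% higher and 13.1% lower, and the median was -0.19 over the tested members and -0.05 over all genes. More than a 2-fold change was seen for 6, with 2 higher and 4 lower (16.2% of all genes, 6.69% higher and 9.49% lower). The members that passed, 12 of 41, were thus near the share of all genes.

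**Figure D4:**
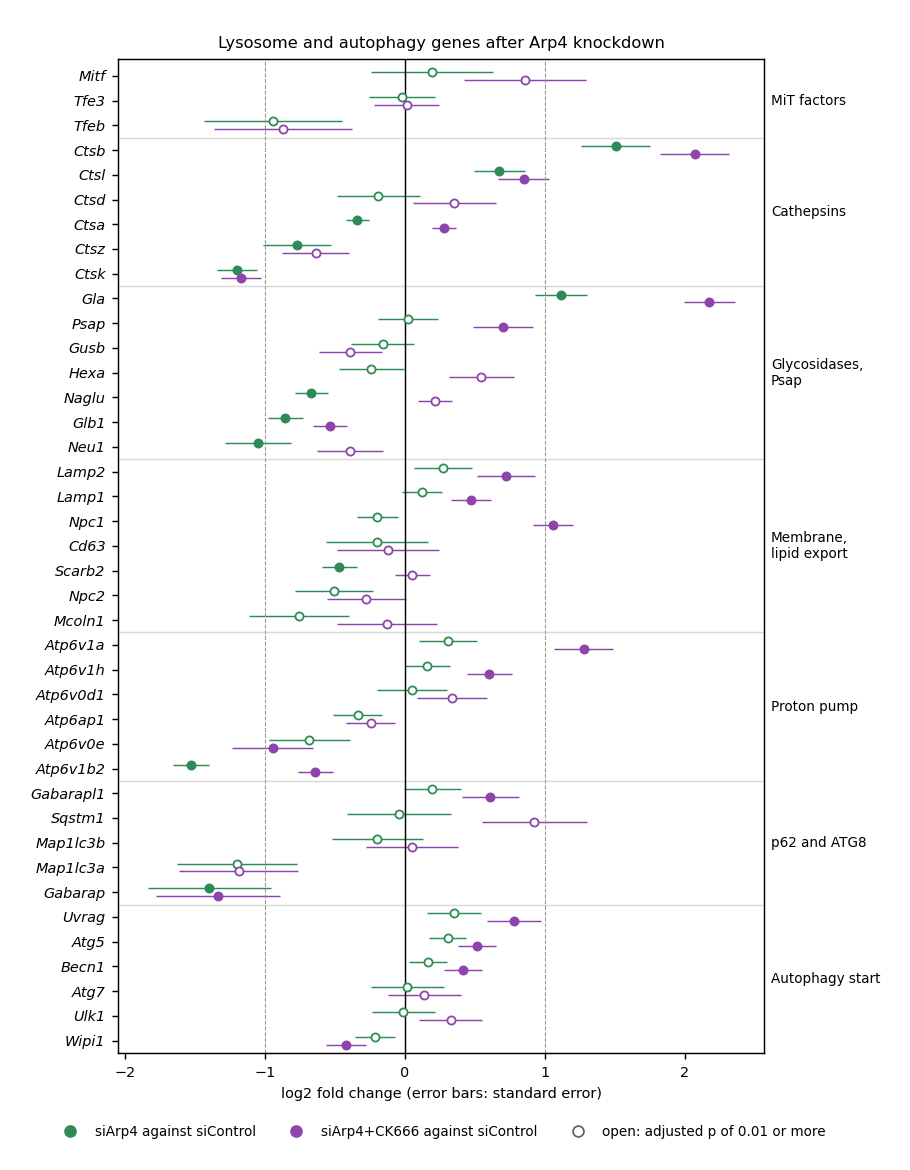
Log2 fold change with its SE (horizontal) of the 40 tested members, grouped by role, for siArp4 and for siArp4+CK666 against the same 3 siControl libraries; filled points passed at an adjusted p below 0.01. Ctsb and Gla lie right of 0 for both, Ctsk, Gabarap and Atp6v1b2 left of 0 for both, and the error bars of Tfeb, Sqstm1 and the short members are wide.

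The members that rose in siArp4 were Ctsb, Gla and Ctsl. Ctsb measured 32279, 16672 and 27045 counts in siControl and 70140, 70296 and 75562 in siArp4, and every siArp4 library lay far above the highest siControl library (1.51 ± 0.25, adjusted p = 2.1e-08). The Ctsb gene overlaps Fdft1 on the other strand, which had a mean of 2132 estimated counts against 48198 for Ctsb. Gla went from 2097, 1495 and 2169 to 3962, 4062 and 4469 (1.12 ± 0.18, adjusted p = 2.0e-08), and Ctsl rose by 0.68 ± 0.18 (adjusted p = 0.0014).

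The largest fall was of Atp6v1b2, the B2 subunit of the catalytic head of the proton pump. It measured 3193, 3902 and 3335 counts in siControl and 1203, 1193 and 1211 in siArp4 (-1.53 ± 0.13, adjusted p = 1.4e-30). Ctsk went from 1838, 2160 and 2176 to 888, 939 and 855 (-1.20 ± 0.14, adjusted p = 2.3e-15). Neu1 went from 1832, 3177 and 2714 to 1301, 1271 and 1159 (-1.05 ± 0.24, adjusted p = 7.7e-05). In all 3 genes, which were named for their falls, the groups lay apart and the siArp4 libraries were close together. Glb1 (-0.85), Ctsz (-0.77), Naglu (-0.67), Scarb2 (-0.47) and Ctsa (-0.34) also fell, and none of the other pump genes passed. Leaving out siArp4 replicate 1 or 2 ended the calls of Ctsa (adjusted p = 0.051 and 0.034), Ctsl (0.026 and 0.017), Ctsz (0.028 and 0.031) and Scarb2 (0.038 and 0.020), and leaving out siControl replicate 3 those of Ctsa (0.018), Ctsl (0.017) and Ctsz (0.032).

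Of the ATG8 genes, Gabarap passed, across siControl libraries that were far apart. It measured 7653, 31180 and 13925 counts in siControl and 6870, 7335 and 5815 in siArp4 (-1.40 ± 0.44, adjusted p = 0.0065). Without siControl replicate 2 the difference was -0.70 with adjusted p = 0.0527, by edgeR the adjusted p was 0.0399, and with the length trend removed it was -0.99 with adjusted p = 0.00045. Map1lc3a, at 2771, 10519 and 5269 counts against 2847, 2961 and 2279, did not pass (-1.20, adjusted p = 0.018), and passed with the trend removed (-0.73, adjusted p = 0.0012). Map1lc3b (5297, 12979 and 7992 against 8197, 7744 and 6986) and Gabarapl1 (2972, 1890 and 2965 against 3088, 2956 and 2932) overlapped. Sqstm1, at 12978, 38967 and 20802 counts in siControl and 24867, 24929 and 20838 in siArp4, had a log2 difference of -0.04 with a 95% interval of -0.77 to 0.69. No MiT factor passed: Tfeb spread over 116, 523 and 246 counts in siControl against 147, 173 and 139, Tfe3 had 1255, 2125 and 1465 against 1635, 1659 and 1479, and Mitf had 228, 62.9 and 142 against 169, 144 and 183.

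The same siControl libraries served for siArp4+CK666, where 20 members passed, 14 higher and 6 lower, against 29.9% of all genes, 14.0% higher and 15.8% lower. The median was 0.25 over the tested members and -0.05 over all genes, and 6 members passed with over a 2-fold change (20.4% of all genes, 8.06% higher and 12.4% lower), 4 of them higher. Gla reached 8597, 9330 and 8140 counts (2.18 ± 0.18, adjusted p = 1.5e-30), a 4.52-fold difference. Ctsb reached 113002, 112211 and 94203 counts (2.07 ± 0.25, adjusted p = 2.0e-15). Both lay far above the siControl libraries. Atp6v1a, the A subunit of the head of the pump, measured 6823, 4735 and 4880 counts in siControl and 15394, 13150 and 11302 here (1.28 ± 0.21, adjusted p = 8.7e-09), and Npc1 went from 1053, 934 and 1217 to 2183, 2186 and 2317 (1.06 ± 0.14, adjusted p = 3.9e-12). The other rises were Ctsl (0.85), Uvrag (0.78), Lamp2 (0.72), Psap (0.70), Gabarapl1 (0.61), Atp6v1h (0.60), Atg5 (0.52), Lamp1 (0.47), Becn1 (0.42) and Ctsa (0.28). Uvrag and Becn1 are parts of the lipid kinase complex that starts the autophagosome, and Atg5 belongs to the ATG8 conjugation machinery. Many of the smaller changes were lost when 1 library was left out: without siArp4+CK666 replicate 2, Atg5, Becn1, Ctsa, Gabarapl1, Lamp1, Lamp2, Psap and Atp6v1h had adjusted p from 0.016 (Atp6v1h) to 0.089 (Ctsa), and without siControl replicate 3 the highest was 0.068 (Ctsa).

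Lower in siArp4+CK666 than in siControl were Gabarap (5369, 6469 and 9068 counts, -1.34, adjusted p = 0.0084), Ctsk (833, 925 and 982, -1.17, adjusted p = 8.2e-15), Atp6v0e (-0.95), Atp6v1b2 (2218, 2278 and 2197, -0.64, adjusted p = 4.0e-06), Glb1 (-0.53) and Wipi1 (1565, 1588 and 1360 against 2185, 1953 and 1905, -0.42, adjusted p = 0.0093). Gabarap overlapped with siControl although it passed, and its call was lost without siControl replicate 2 (adjusted p = 0.076), as was that of Atp6v0e (0.022); that of Wipi1 was lost without siArp4+CK666 replicate 3 (0.078). The other ATG8 genes measured 1934, 2794 and 3415 counts (Map1lc3a), 7112, 8766 and 11329 (Map1lc3b) and 3779, 4141 and 4039 (Gabarapl1), and Gabarapl1 alone lay wholly above siControl. Sqstm1, at 35620, 44445 and 58226 counts, did not pass (0.93 ± 0.37, adjusted p = 0.036), and without siControl replicate 2 it did (1.45, adjusted p = 5.7e-07). Cd63 measured 28803, 85497 and 47176 counts in siControl and 38487, 49755 and 60482 here, and its log2 difference turned from -0.12 to 0.38 with the length trend removed.

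What CK666 did in knockdown cells was tested against siArp4. Here 8 members passed, all higher, where 9.9% of all genes passed, 3.82% higher and 6.07% lower. The median was 0.34 over the tested members and 0.02 over all genes, and 2 members rose over 2-fold (5.75% of all genes in either direction, 1.63% higher). Npc1 went from 964, 921 and 912 counts in siArp4 to 2183, 2186 and 2317 (1.26 ± 0.14, adjusted p = 4.9e-16), and Gla rose by a further 1.06 ± 0.18 (adjusted p = 2.4e-07). Atp6v1a rose from 6400, 6638 and 7349 counts (0.97 ± 0.21, adjusted p = 6.6e-05, and 0.0125 by edgeR) and Atp6v1b2 by 0.89 ± 0.13 (adjusted p = 2.7e-10), which left Atp6v1b2 between siArp4 and siControl. Naglu rose from 1274, 1221 and 1171 counts to 2155, 2267 and 2344 (0.88 ± 0.12, adjusted p = 1.2e-11), Ctsa by 0.62 and Scarb2 by 0.52. The call of Scarb2 was lost without siArp4 replicate 1 (adjusted p = 0.046), among 5 such libraries. Hexa rose from 4112, 4170 and 3934 to 6151, 7177 and 7755 (0.79 ± 0.23, adjusted p = 0.0073), a call that edgeR did not share (adjusted p = 0.0435) and that 7 of the 9 libraries could end when left out, with adjusted p up to 0.071; in siControl it had 3524, 6293 and 4608. Neu1, at 1670, 1949 and 2256 counts with CK666, lay above every siArp4 library and did not pass (0.65). Sqstm1 was higher in every siArp4+CK666 library than in any siArp4 library but did not pass (0.97 ± 0.37, adjusted p = 0.062). Without siControl replicate 2, which enters through the shared spread and scaling of the fit, it did (0.98, adjusted p = 0.00059). Among the MiT factors the log2 differences were 0.07 for Tfeb (99.4, 203 and 180 counts), 0.03 for Tfe3 (1388, 1664 and 1832) and 0.67 for Mitf (365, 225 and 198), and none passed.

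CK666 was thus given in 2 settings that share no library, untransfected and knockdown cells. Of the 23 members higher with CK666 in untransfected cells, 7 were also higher in knockdown cells, where 8 passed in all. The 7 were Atp6v1b2, Ctsa, Gla, Hexa, Naglu, Npc1 and Scarb2, and Atp6v1a passed in knockdown cells alone. Without siControl replicate 2, 17 members passed in knockdown cells, where 13.3% of all genes did. Psap, Mcoln1, Neu1, Sqstm1, Gabarapl1 and Atp6v1h, all higher with CK666 in untransfected cells, were then among them. The share of all genes higher in both settings was not counted. The difference between the settings was tested as an interaction over all 18 libraries, and 2 members passed, 1 in each direction (7.81% of all genes, 3.76% higher and 4.05% lower), Ctsk with more than a 2-fold difference (4.41% of all genes). Ctsk rose with CK666 in untransfected cells and not in knockdown cells, where it had 888, 939 and 855 counts without and 833, 925 and 982 with CK666 (0.03), and its difference was -1.49 ± 0.20 (adjusted p = 4.6e-12). Atp6v1b2 rose more in knockdown cells (difference 0.56 ± 0.14, adjusted p = 9.5e-04); edgeR gave adjusted p = 0.0192. Atp6v1a had a difference of 0.72 (adjusted p = 0.013, and 3.4e-05 with the length trend removed), Neu1 of -0.71 (adjusted p = 0.061) and Sqstm1 of -0.87 (adjusted p = 0.18). The settings also differ in transfection, so the knockdown and the transfection cannot be told apart in these values.

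**Figure D5:**
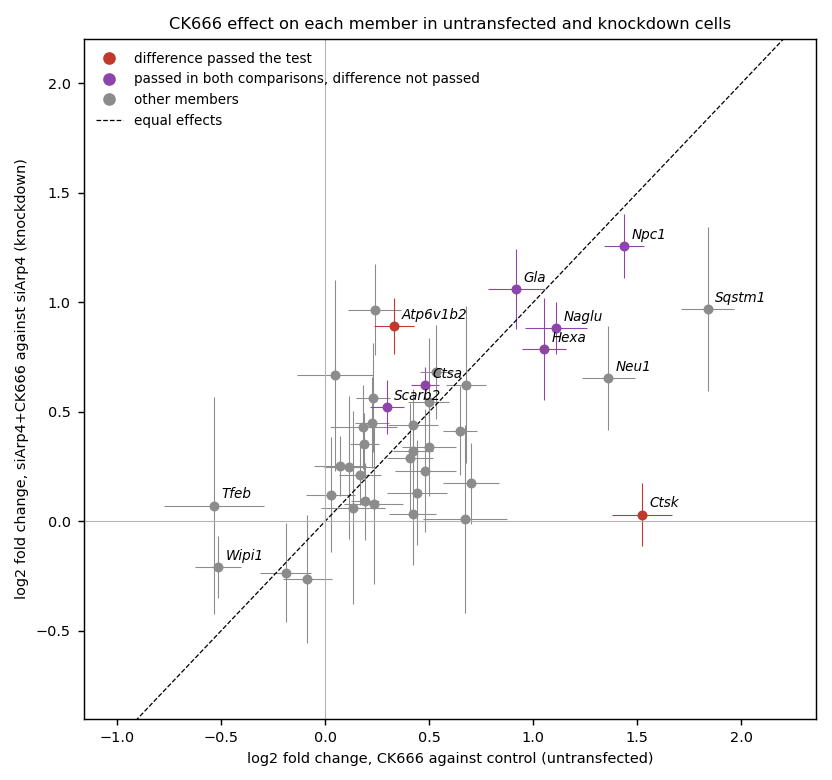
Log2 fold change of CK666 with its SE in untransfected cells (horizontal) and in Arp4 knockdown cells (vertical) for the 40 tested members. Ctsk and Atp6v1b2, in red, are the members whose difference passed (-1.49 and 0.56), and purple points passed in both settings.

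Read together by member, 8 genes were higher with CK666 in untransfected cells and lower in siArp4: Atp6v1b2, Ctsa, Ctsk, Ctsz, Glb1, Naglu, Neu1 and Scarb2. The share of all genes with this pattern was not counted. Among the 8, Atp6v1b2, Ctsa, Ctsz and Scarb2 lost a call when a library was left out, as given above. Ctsl and Gla were higher in both. Atp6ap1, an accessory subunit of the pump, Cd63, Ctss and Tfeb passed in no comparison. With the length trend removed, the members that passed were 28 with CK666, 33 with CytoD, 14 in siArp4, 21 in siArp4+CK666 against siControl and 14 against siArp4, where the share of all genes was then 35.1, 34.3, 31.4, 36.8 and 13.3%.

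The members with TCACGTG in the promoter were compared with the 24 without it by counts alone. With CK666, 7 of the 11 passed higher, against 12 of the 24 (with 1 lower), and with CytoD 9 of 11 against 14 of 24. In siArp4, 1 of the 11 was higher and 3 were lower, against 1 and 5 of the 24. In siArp4+CK666 against siControl, 4 of the 11 were higher and 2 lower, against 6 and 3 of the 24. In siArp4+CK666 against siArp4, 4 of the 11 (Atp6v1a, Ctsa, Gla and Naglu) and 2 of the 24 were higher. Those last counts depended on 1 library, since 17 members passed there without siControl replicate 2 (13.3% of all genes). Naglu and Gla, whose elements are printed above, rose with both drugs, while Lamp1 passed with CytoD and not with CK666.

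Other genes of the pathway, 163 in 6 lists of further hydrolases, membrane transporters, pump subunits, autophagy factors, receptors and nutrient-sensing regulators, were counted the same way. With CK666 67 passed (58 higher), which is 41.6% of those tested where 30.0% of all genes passed, and with CytoD 63 (59 higher), 39.6% against 29.6%. In siArp4 43 passed (19 higher and 24 lower), 27.0% and so near the 25.1% of all genes. In siArp4+CK666 56 (38 higher) passed against siControl, 35.2% where 29.9% of all genes did, and 20 (19 higher) against siArp4, 12.6% where 9.9% did. Of 31 further hydrolases, 24 rose with CytoD and none fell, 14 rose and 1 fell with CK666, and 2 rose and 9 fell in siArp4, which is 77.4%, 48.4% and 35.5% of the 31. Rragd, a GTPase that links nutrients to MiT factors at the lysosome, had 121, 98.4 and 88 counts in control and 379, 433 and 382 in CK666 (1.96, adjusted p = 2.6e-26). Sort1, which sorts hydrolases toward lysosomes, rose with CytoD (2.01) and fell in siArp4 (-1.69). Vmp1, needed for autophagosome formation, rose in siArp4 (2.15), and Atp6v0d2, a pump subunit of osteoclasts and macrophages, rose in siArp4+CK666 (3.10). Bnip3, a mitophagy receptor, fell with CK666 in untransfected cells (-1.25) and had a log2 fold change of -0.25 in knockdown cells, a difference of 1.0 ± 0.16 (adjusted p = 3.0e-08).

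Marker lists of cells a marrow culture could hold were read beside these results. Of 14 MSC markers 12 had at least 10 counts. Thy1 was at 0, and Nt5e had a mean of 1.72 estimated counts. The summed level of that list was 10952 to 11703 CPM in control, 5821 to 7042 in CK666 and 14882 to 15493 in CytoD. It was 6002 to 12981 in siControl, 11327 to 12934 in siArp4 and 5982 to 7423 in siArp4+CK666. The sum was thus lower with CK666 in both settings. Most of it came from Col1a2, Col1a1 and Cxcl12, with means of 91064, 47719 and 43439 estimated counts, so it does not describe the other markers of the list. Of 15 macrophage and blood markers the summed level was 10.9 to 14 CPM in control, 9.26 to 12 in CK666, 18.7 to 19.7 in CytoD, 8.39 to 15.5 in siControl, 8.53 to 10.3 in siArp4 and 7.43 to 19.8 in siArp4+CK666. Ptprc, the pan-leukocyte marker CD45, was at 0 in every library but siArp4+CK666 replicate 3 (1.05 normalized counts), and Tyrobp likewise (6.32). That library was also the only one with Ctss (52.7 normalized counts), and its Lyz2 was 189 where the other libraries had 11.0 to 86.1. The osteoclast list summed to 115 to 123 CPM in control, 71.0 to 102 in CK666, 85.5 to 87.9 in CytoD, 44.3 to 90.3 in siControl, 29.7 to 37.5 in siArp4 and 48.0 to 65.7 in siArp4+CK666. Its members did not move alike: Nfatc1, a transcription factor of osteoclast formation, fell with CK666 (-1.27) and CytoD (-0.92), while the integrin gene Itgb3 (1.32 and 0.57) and Atp6v0d2 (1.84 and 1.57) rose, as Ctsk did, and Acp5, Dcstamp and Calcr were at 0 in all 9 libraries of the first experiment. The list of 8 adipocyte markers summed to 1297 to 1370 CPM in control, 2105 to 2178 in CK666 and 3658 to 3778 in CytoD. It summed to 3444 to 3855 in siControl, 905 to 971 in siArp4 and 3222 to 3433 in siArp4+CK666. Most of this sum came from Lpl, with a mean of 39525 estimated counts against 6470 for Cebpa, the next highest. Where the sum fell in siArp4, 3 members passed higher and 9 lower. The part of these lists in the members' changes was not tested.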

How the data were processed

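The authors sequenced unstranded paired reads and quantified them with Salmon 1.2.1 on GENCODE vM25 (GRCm38/mm10), per the labels and the study's methods; the sources used here do not give how transcripts were summed to genes. The deposited values are estimated counts per gene, which were rounded to whole numbers. Of 54347 gene identifiers, 54094 matched a symbol in GENCODE vM21, whose longest basic coding transcript gave lengths. Totals per library ran from 18075610 to 24733212, and low counts limit precision for Ctss and little else.

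Each experiment's 9 libraries were fitted together with DESeq2 1.42.0 (R 4.3.3, Wald test, Benjamini-Hochberg over all genes tested), and the interaction over all 18. A gene passed at an adjusted p below 0.01. Levels are counts divided by the size factors of the gene's own experiment; per-kb levels are divided by transcript length. Marker sums are CPM, a library's counts scaled to a common total. Separate animals per replicate are not given, so p-values measure only the spread between these samples, which may be technical. The functions were tested on simulated data. Alternatives were edgeR 4.0.16 (quasi-likelihood), TMM scaling, a count of 10 in 3 libraries, a 2-fold minimum, an adjusted p of 0.05, all 18 libraries in 1 fit, a replicate block, leaving out each library and, chosen after seeing the data, removal of each library's trend with transcript length by lowess.

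Values in every library are given for the MiT factors, the ATG8 genes, Sqstm1, each member past the test and over 2-fold in any comparison, and the largest rise and fall in each comparison. Of other pathway genes, at most the 2 largest rises and falls over 2-fold per list, with a mean of at least 100 counts, could be named. The members and lists were chosen with earlier results of these data known.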

Additional observations from a re-analysis of the deposited data

Results flagged for a closer look

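The response to CK666 differed between untransfected and Arp4 knockdown cells for 2 members, by a test of the difference itself. They are 5.0% of the tested members, where 7.81% of all genes passed. For Ctsk the difference was -1.49 on the log2 scale: all 3 CK666 libraries exceeded all 3 control libraries, while the siArp4 and siArp4+CK666 libraries overlapped. With the length trend removed it was -1.26 with adjusted p = 3.7e-12 (DESeq2). For Atp6v1b2 the difference was 0.56, with the gene higher in all 3 CK666 libraries of both settings. With the length trend removed it was 0.61 with adjusted p = 1.4e-06 (DESeq2), and by edgeR it did not pass. Because the settings differ in transfection as well as in Arp4 siRNA, these cannot be told apart.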

How the results depend on the processing

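Counts of members that passed changed by over 1.5 times under some settings. With all 18 libraries in one fit, 15 passed with CK666 and 13 in siArp4+CK666 against siArp4. The share of all genes under that fit was not counted. By edgeR 7 passed in siArp4, 10 in siArp4+CK666 against siControl, 5 against siArp4 and 1 in the interaction. The share of all genes was 18.4, 23.9, 4.56 and 3.67%. The counts in siArp4 and in siArp4+CK666 against siControl were thus near the share of all genes. With the length trend removed 23 passed between CK666 and CytoD (37.4% of all genes) and 14 in siArp4+CK666 against siArp4 (13.3%), and Cd63 in siArp4+CK666 against siControl reversed from -0.12 to 0.38. With a 2-fold minimum 6 passed with CK666, 4 with CytoD, 1 between the drugs, 6 in siArp4, 6 in siArp4+CK666 against siControl, 2 against siArp4 and 1 in the interaction. Leaving out 1 library gave 16 to 30 with CK666 (16 without control replicate 2, where 23.6% of all genes passed). It gave 24 to 33 with CytoD, with 21.6 to 38.4% of all genes, and 12 to 22 between the drugs, with 26.5 to 39%. In siArp4 it gave 7 to 18. The 7 came without siArp4 replicate 1 or 2 (20 and 19.4% of all genes) and the 18 without siControl replicate 1 (35.7%). For siArp4+CK666 it gave 9 to 22 against siControl (9 without siArp4+CK666 replicate 2, 24.3% of all genes). Against siArp4 it gave 6 to 17 (17 without siControl replicate 2, 13.3%). In the interaction it gave 2 to 4 (4 without siControl replicate 1, 11.1%). The share of all genes thus moved as well. TMM scaling, the count floor and an adjusted p of 0.05 kept every count within 1.5 times.

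Libraries with the same number did not all deviate together. The correlations of CK666 with control were 0.278, 0.193 and 0.0608, and those of siArp4 with siControl were -0.318, 0.397 and -0.0944. Those of siArp4+CK666 with siControl were 0.786, -0.112 and 0.168. Some libraries correlated best with their own number and others did not. Since single libraries also deviated by transcript length, these values cannot decide whether the numbers pair the samples. With a replicate block 10 members passed in siArp4, 17 in siArp4+CK666 against siControl and 7 against siArp4, where 25.4, 31.2 and 8.62% of all genes passed.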
